A study of Mus musculus with 18 samples.

Results

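The Hedgehog pathway was followed through 9 genes in immortalized murine brown preadipocytes, an undifferentiated precursor line of brown fat, treated with vehicle or with FGF6. The genes were *Ptch1*, *Hhip*, *Boc*, *Cdon*, *Smo*, *Sufu*, *Gli1*, *Gli2*, and *Gli3*, which are 9 of the 48023 genes in the count table and were chosen by name. All 9 were among the 15071 genes with enough counts for a test. FGF6 is a paracrine fibroblast growth factor. There were 6 groups of 3 libraries, with cells given vehicle or FGF6 for 4, 8, or 24 h. Total RNA was isolated for sequencing, and the sources used here do not state how libraries were made from it. All groups are the same line, which came from the stromal vascular cells of mouse brown fat and carries the SV40 T antigen, so it stands for a single immortalized population. The labels do not say whether the libraries of a group came from separate cultures, so p-values measure the spread between libraries only.

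Hedgehog signaling starts when a secreted ligand (Sonic, Indian, or Desert hedgehog) binds PTCH1 on the cell surface. Without ligand PTCH1 keeps SMO out of the primary cilium, and the GLI transcription factors are held by SUFU and trimmed to repressors. With ligand SMO becomes active and the GLI proteins turn on target genes, among which *Gli1*, *Ptch1*, and *Hhip* are the common readouts. In adipose precursors the pathway is known mainly as a brake on white adipocyte differentiation.

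The library totals ranged from 24327816 to 33471980 counts (median 28922204.5), and 3 counts corresponded to between 0.0905 and 0.126 CPM (counts scaled to a common normalized total of the genes tested), which covers counting error only. Replicate 3 of the vehicle group at 24 h stood apart from its group, with a chi-square per degree of freedom of 37.9 and 41.3 against its mates, compared with 2.44 to 7.63 for all other pairs of replicates. The fold changes at 24 h are therefore also given without that library. Of 9 stromal and preadipocyte markers, 8 passed the filter, with *Pdgfra* between 88.8 and 303 CPM and *Ebf2* between 31.6 and 56.5 CPM, and *Dlk1* was at 0 counts throughout. Single markers of other lineages were present. Among them were *Acta2* at 74.5 to 1010 CPM, *Tagln* at 24.6 to 255 CPM, *Cspg4* at 21.2 to 111 CPM, and *Fabp4* at 63.3 to 173 CPM. In a library *Cd68* had 82 to 523 counts, *Cd14* 167 to 1195, and *Csf1r* 9 to 128. *Myod1* had 25 to 111 counts and *Myog* 8 to 153. Others were near 0, with *Lep* and *Cd3e* at 0 and *Adgre1* and *Ptprc* at no more than 2 counts.

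The receptors and surface proteins are described first. *Ptch1* (ENSMUSG00000021466, protein coding, GRCm38 chromosome 13, 63508328 to 63573598, minus strand) encodes the receptor that holds SMO inactive. In vehicle-treated cells its level was 70.9, 69.9, and 72.4 CPM at 4 h, 60.4, 59.9, and 62.6 CPM at 8 h, and 42.4, 40.3, and 40.8 CPM at 24 h. In FGF6-treated cells it was 36.4, 34.4, and 36.0 CPM at 4 h, 29.7, 26.7, and 29.0 CPM at 8 h, and 43.0, 41.2, and 43.3 CPM at 24 h. All FGF6 libraries lay below all vehicle libraries at 4 and 8 h, and the groups overlapped at 24 h.

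*Ptch1* fell with FGF6 by 1.00 on the log2 scale at 4 h (SE 0.044, adjusted p = 3.19e-16, edgeR's quasi-likelihood test) and by 1.10 at 8 h (SE 0.045, adjusted p = 4.21e-17). At 24 h the log2 fold change was 0.05 (95% interval -0.05 to 0.14, adjusted p = 0.349). Without vehicle replicate 3 the 24 h value was 0.08 (adjusted p = 0.138), and without vehicle replicate 1 it was 0.11 and passed the threshold (adjusted p = 0.0487). The groups met through a decline with time in vehicle (mean 71.1 ± 1.27, 61.0 ± 1.45, and 41.1 ± 1.08 CPM, SD, n = 3) beside an increase in FGF6 from 28.5 ± 1.59 to 42.5 ± 1.16 CPM between 8 and 24 h. In bulk RNA such a change cannot be told apart between fewer cells with the transcript and less transcript in each cell.

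*Hhip* (ENSMUSG00000064325, chromosome 8, 79965851 to 80058006, minus strand) encodes a membrane protein that binds and sequesters Hedgehog ligands, and it showed the largest increase of the 9 genes. Its promoter is shown because of that increase, together with that of *Gli2*, a gene that was lower at the same times. Both are the 250 bases upstream of the RefSeq start (GRCm38.p6), written 5′ to 3′ on the strand of the gene, and capitals mark the letters TGACGTCA, which are those of a cAMP response element.
Hhip, chr8:80058009-80058258, minus strand: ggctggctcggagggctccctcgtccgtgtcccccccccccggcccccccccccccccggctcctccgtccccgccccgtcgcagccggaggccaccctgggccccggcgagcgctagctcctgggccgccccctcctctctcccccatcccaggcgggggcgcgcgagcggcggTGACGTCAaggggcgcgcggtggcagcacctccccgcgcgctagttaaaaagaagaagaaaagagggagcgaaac
Gli2, chr1:119053620-119053869, minus strand: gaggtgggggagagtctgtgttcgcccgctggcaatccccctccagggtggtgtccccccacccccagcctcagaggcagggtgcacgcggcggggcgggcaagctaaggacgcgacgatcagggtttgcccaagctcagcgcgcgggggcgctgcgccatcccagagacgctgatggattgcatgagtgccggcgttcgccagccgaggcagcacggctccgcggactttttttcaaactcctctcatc
RefSeq windows were matched for 7 of the 9 genes, without *Gli1* and *Boc*. Those of *Ptch1*, *Cdon*, and *Gli3* lay inside the gene positions given here, before an internal start. The letters TGACGTCA began 75 bases before the start of *Hhip* and were in none of the other 6 windows, and 1.55% of 32851 promoter windows of the same length held them. This motif was chosen after the sequence had been seen. The GLI motif GACCACCCA, the AP-1 motif TGACTCA, and the ETS motif CCGGAAGT, searched on both strands, matched none of the 7 windows, and were in 0.225%, 4.46%, and 2.88% of all windows. A match describes letters and not binding.

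*Hhip* was close to undetectable in vehicle-treated cells, with 3, 4, and 3 counts at 4 h, 1, 8, and 1 counts at 8 h, and 1, 2, and 0 counts at 24 h. With FGF6 it had 8, 11, and 3 counts at 4 h, 28, 25, and 25 counts at 8 h, and 29, 34, and 27 counts at 24 h. The groups did not overlap at 8 or 24 h, although the highest FGF6 level was only 1.21 CPM. The log2 fold change was 3.04 at 8 h (SE 0.47, adjusted p = 2.6e-06) and 4.80 at 24 h (SE 0.58, adjusted p = 4.43e-08). At 24 h the ratio of summed counts, scaled for depth, was 31.0 with an exact counting interval of 10.3 to 153, or 23.0 (7.64 to 114) without vehicle replicate 3. At 4 h the value was 1.26 (95% interval 0.05 to 2.48, adjusted p = 0.0658), and it passed the threshold only without FGF6 replicate 3 among the 6 fits that left out a library (1.58, adjusted p = 0.0271). The 8 h value was 4.64 without vehicle replicate 2, the library with 8 counts. The 24 h value was 4.41 without vehicle replicate 3 and 5.58 without vehicle replicate 2.

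*Boc* (ENSMUSG00000022687, chromosome 16, 44485049 to 44558897, minus strand) and *Cdon* (ENSMUSG00000038119, chromosome 9, 35421128 to 35507652, plus strand) encode related co-receptors that present ligand to PTCH1. *Boc* was at 2.17, 2.47, and 2.77 CPM in vehicle at 4 h, 1.67, 3.21, and 2.70 CPM at 8 h, and 1.54, 2.11, and 2.35 CPM at 24 h. With FGF6 it was at 2.40, 3.19, and 2.15 CPM at 4 h, 1.82, 0.975, and 1.03 CPM at 8 h, and 0.219, 0.179, and 0.404 CPM at 24 h. The groups were interleaved at 4 h, overlapped in 1 FGF6 library at 8 h, and were well separated at 24 h. *Boc* fell by 0.97 at 8 h (log2, SE 0.26, adjusted p = 0.00197) and by 2.88 at 24 h (SE 0.37, adjusted p = 1.43e-07), which left 0.135 times the vehicle level on the fitted scale. The 24 h value was -2.73 without vehicle replicate 3. At 4 h the log2 fold change was 0.08 (95% interval -0.41 to 0.56, adjusted p = 0.802), and it turned to -0.09 without FGF6 replicate 2, to -0.01 without vehicle replicate 1, and to -0.03 with library sizes alone.

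*Cdon* was at 74.6, 74.6, and 73.5 CPM in vehicle at 4 h, 91.1, 96.9, and 96.3 CPM at 8 h, and 64.8, 75.4, and 72.5 CPM at 24 h. With FGF6 it was at 42.2, 45.6, and 47.3 CPM at 4 h, 38.8, 37.7, and 36.6 CPM at 8 h, and 46.7, 43.4, and 45.8 CPM at 24 h. Every FGF6 library lay below every vehicle library at each time. The decrease was 0.606 times vehicle at 4 h (log2 -0.72, SE 0.051, adjusted p = 4.17e-12), 0.398 times at 8 h (log2 -1.33, SE 0.051, adjusted p = 1.27e-17), and 0.639 times at 24 h (log2 -0.65, SE 0.051, adjusted p = 1.99e-11), the last being -0.59 without vehicle replicate 3.

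The signal transducers moved less. *Smo* (ENSMUSG00000001761, chromosome 6, 29735503 to 29761365, plus strand) encodes the membrane protein that PTCH1 restrains. It was at 173, 174, and 166 CPM in vehicle at 4 h, 175, 181, and 167 CPM at 8 h, and 178, 172, and 170 CPM at 24 h. With FGF6 it was at 131, 125, and 121 CPM at 4 h, 158, 157, and 152 CPM at 8 h, and 187, 199, and 207 CPM at 24 h. The FGF6 libraries thus lay below vehicle at 4 and 8 h and above it at 24 h, without overlap at any time. *Smo* fell by 0.44 at 4 h (log2, SE 0.040, adjusted p = 5.88e-10) and by 0.17 at 8 h (SE 0.040, adjusted p = 0.000703) and rose by 0.19 at 24 h (SE 0.040, adjusted p = 0.000159), or 0.22 without vehicle replicate 3.

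*Sufu* (ENSMUSG00000025231, chromosome 19, 46396896 to 46488804, plus strand) encodes the cytoplasmic inhibitor that binds GLI proteins. Its levels in vehicle were 60.3, 55.4, and 55.8 CPM at 4 h, 59.1, 58.9, and 57.6 CPM at 8 h, and 51.1, 50.1, and 52.3 CPM at 24 h. With FGF6 they were 52.2, 52.9, and 53.5 CPM at 4 h, 52.4, 49.7, and 52.8 CPM at 8 h, and 48.6, 44.6, and 46.6 CPM at 24 h. The groups did not overlap at any time, but the differences were small, with log2 fold changes of -0.11 at 4 h (SE 0.043, adjusted p = 0.0258), -0.18 at 8 h (SE 0.043, adjusted p = 0.000566), and -0.13 at 24 h (SE 0.044, adjusted p = 0.00857). The 8 h call was kept whichever library was left out. The 4 h call was lost without FGF6 replicate 1, 2, or 3 or vehicle replicate 1, where the value was between -0.10 and -0.07. The 24 h call was lost without FGF6 replicate 2 or 3 or any vehicle library, where it was between -0.11 and -0.08, and it was -0.08 (adjusted p = 0.159) without vehicle replicate 3.

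The 3 GLI genes encode the transcription factors of the pathway. *Gli1* (ENSMUSG00000025407, chromosome 10, 127329882 to 127341974, minus strand) encodes the activator that is itself a target of the pathway. Its counts in vehicle were 32, 29, and 26 at 4 h, 38, 22, and 23 at 8 h, and 22, 40, and 18 at 24 h. With FGF6 they were 12, 15, and 18 at 4 h, 29, 30, and 19 at 8 h, and 60, 61, and 71 at 24 h. In CPM the vehicle means were 0.934 ± 0.0910, 0.895 ± 0.267, and 0.911 ± 0.256 (SD, n = 3), and the FGF6 means were 0.551 ± 0.157, 0.911 ± 0.117, and 2.32 ± 0.244. The FGF6 libraries were all below vehicle at 4 h, mixed with it at 8 h, and all above it at 24 h.

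*Gli1* fell by 0.78 on the log2 scale at 4 h (SE 0.29, adjusted p = 0.0235) and rose 2.50-fold at 24 h (log2 1.32, SE 0.24, adjusted p = 1.92e-05), or by 1.25 on the log2 scale without vehicle replicate 3. The 4 h call was lost without FGF6 replicate 1 (-0.63, adjusted p = 0.101), FGF6 replicate 2 (-0.65, adjusted p = 0.0988), or vehicle replicate 1 (-0.69, adjusted p = 0.0722). At 8 h the value was 0.03 (95% interval -0.52 to 0.58, adjusted p = 0.923), and its sign turned without FGF6 replicate 2 (-0.05) or vehicle replicates 2 (-0.12) or 3 (-0.05). Exons of *Gli1* share 327 bases with genes on the opposite strand. One of them, *Arhgap9*, had at most 4 counts in any library, and the other was not in the table.

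*Gli2* (ENSMUSG00000048402, chromosome 1, 118834132 to 119053619, minus strand) encodes the main activator downstream of SMO. It was at 3.31, 3.80, and 3.74 CPM in vehicle at 4 h, 3.16, 3.50, and 3.01 CPM at 8 h, and 2.59, 3.86, and 3.83 CPM at 24 h. With FGF6 it was at 1.89, 2.90, and 3.33 CPM at 4 h, 1.86, 1.58, and 1.48 CPM at 8 h, and 1.90, 2.25, and 2.09 CPM at 24 h. It was lower with FGF6 without overlap at 8 h (log2 -0.97, SE 0.19, adjusted p = 8.47e-05) and at 24 h (log2 -0.72, SE 0.19, adjusted p = 0.0013), the latter being -0.60 (adjusted p = 0.0101) without vehicle replicate 3. At 4 h the groups overlapped, and the value of -0.42 (SE 0.18, adjusted p = 0.0407) did not pass without FGF6 replicate 1 (-0.20, adjusted p = 0.347), FGF6 replicate 2 (-0.46, adjusted p = 0.0623), vehicle replicate 2 (-0.38, adjusted p = 0.11), or vehicle replicate 3 (-0.40, adjusted p = 0.0952).

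*Gli3* (ENSMUSG00000021318, chromosome 13, 15463235 to 15730026, plus strand) encodes the factor that acts mostly as a repressor. It was at 63.2, 63.9, and 59.3 CPM in vehicle at 4 h, 64.9, 68.9, and 67.9 CPM at 8 h, and 70.8, 68.1, and 72.4 CPM at 24 h. With FGF6 it was at 53.9, 60.5, and 60.5 CPM at 4 h, 52.6, 52.4, and 52.1 CPM at 8 h, and 52.5, 52.7, and 54.3 CPM at 24 h. *Gli3* fell by 0.36 at 8 h (log2, SE 0.045, adjusted p = 1.06e-07) and by 0.41 at 24 h (SE 0.045, adjusted p = 1.3e-08), or by 0.34 at 24 h without vehicle replicate 3. At 4 h the value was -0.09 (95% interval -0.19 to 0.00, adjusted p = 0.0798). It passed without vehicle replicate 3 (-0.12, adjusted p = 0.0324), with library sizes alone (-0.19, adjusted p = 0.000547), and with upper-quartile factors (-0.15). The groups overlapped at 4 h and were separated at 8 and 24 h. *Gli3* exons share 188 bases with *Gm6556* on the opposite strand, which had 11 to 48 counts in a library, and strand use in the counting is not known.

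**Figure D1:**
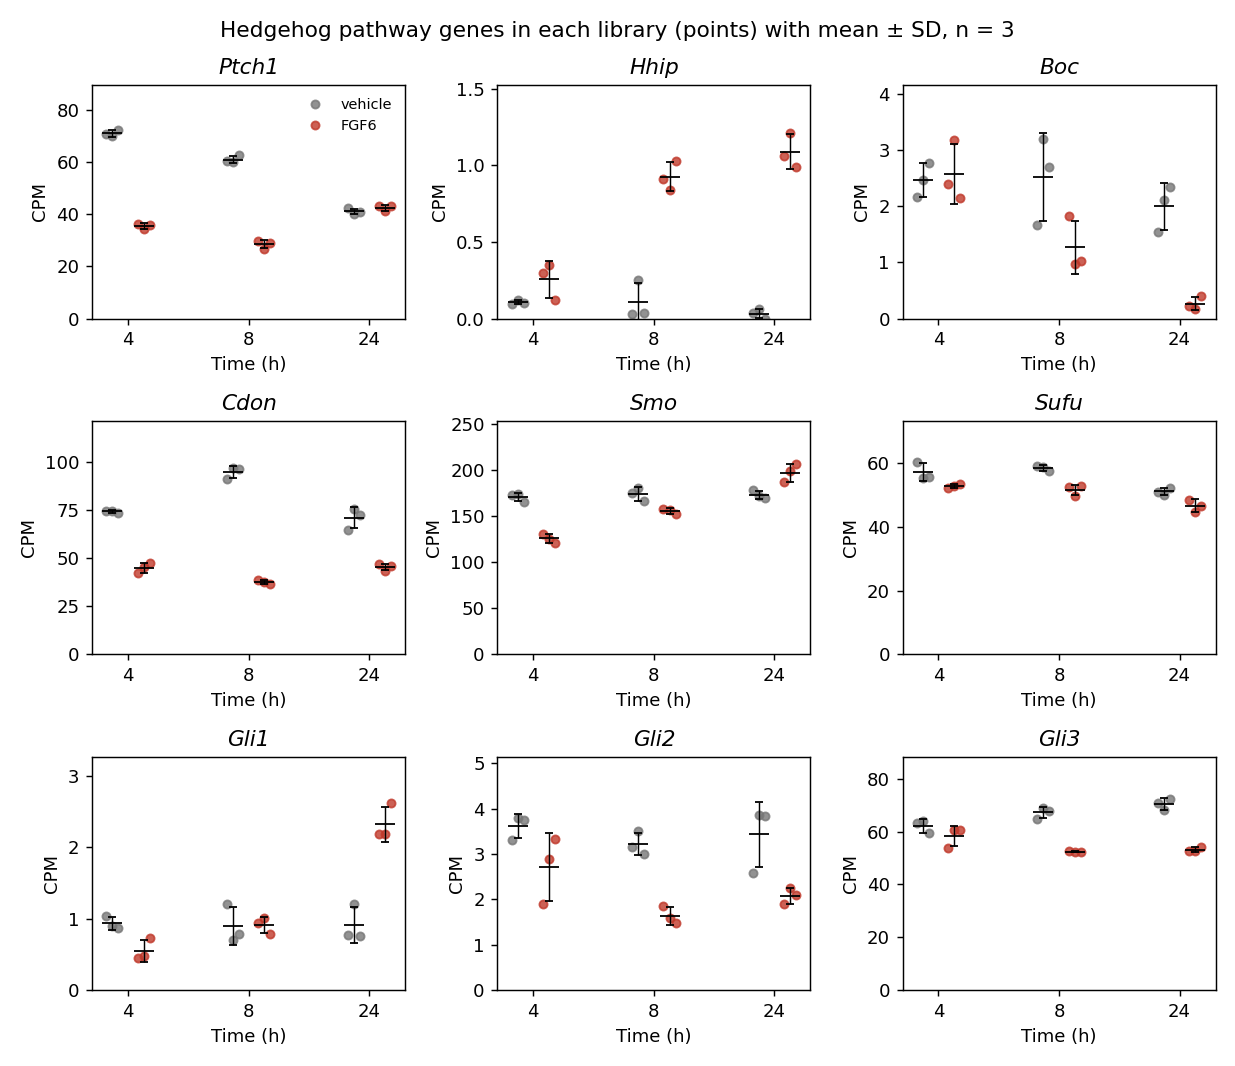
CPM of each of the 9 genes (vertical axis, starting at 0) at 4, 8, and 24 h in vehicle (grey) and FGF6 (red), with 1 point for each library and bars for the mean and SD of 3 libraries. *Ptch1* is separated at 4 and 8 h and joined at 24 h, while *Gli1* is highest in the FGF6 libraries at 24 h, *Boc* is lowest there, and *Hhip* is high in the FGF6 libraries at 8 and 24 h.

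Counted together, 6 of the 9 genes were lower with FGF6 at 4 h and 0 were higher, where 34.2% of all genes tested were lower, 28.6% were higher, and 62.8% were called in either direction at an adjusted p under 0.05. At 8 h 7 were lower and 1 was higher, beside 38.4% lower, 32.4% higher, and 70.8% called among all genes. At 24 h 5 were lower and 3 were higher, beside 37.9% lower, 35.9% higher, and 73.8% called. Without vehicle replicate 3 the counts were 4 and 3, beside 34.2% lower and 36.8% higher among all genes. The 2 groups did not overlap for 5 of the 9 genes at 4 h, where 66.2% of all genes did not overlap, for 7 at 8 h, where 73.8% did not, and for 8 at 24 h, where 74.8% did not. A call was thus common for any gene in these data. The median log2 fold change of the 9 genes was -0.42, -0.36, and -0.13 at 4, 8, and 24 h, beside -0.05, -0.05, and -0.02 over all genes tested.

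**Figure D2:**
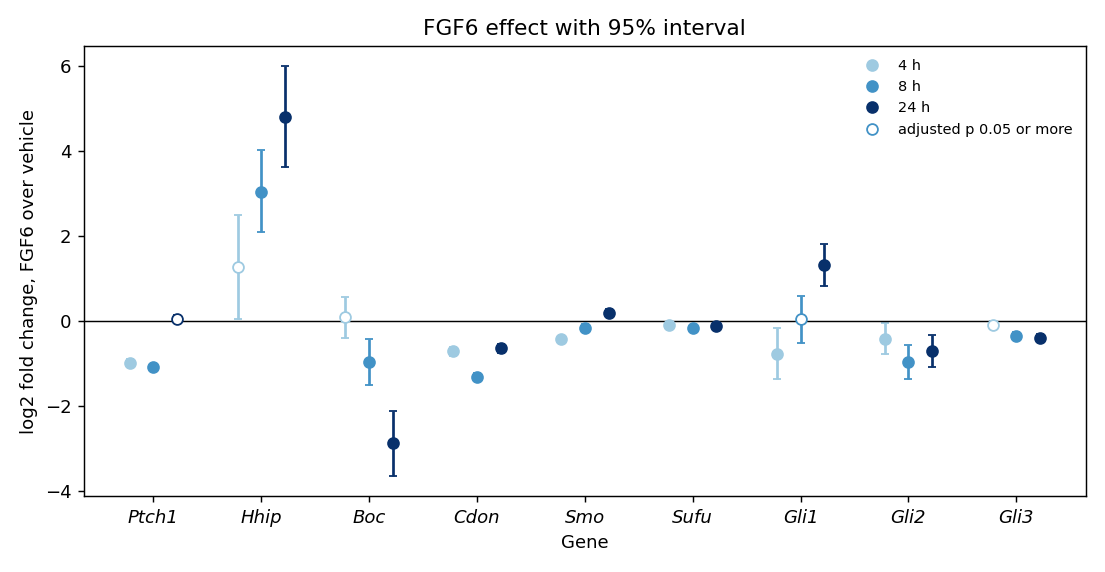
Log2 fold change of FGF6 over vehicle with its 95% interval for each of the 9 genes at 4, 8, and 24 h (light to dark blue), with open circles where the adjusted p was 0.05 or more. *Hhip* reaches 4.80 and *Boc* -2.88 at 24 h, and the values of *Gli1* and *Smo* are below 0 at 4 h and above 0 at 24 h.

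Markers of other cell types moved beside these genes, and their part in the results was not tested. The 9 stromal markers, of which 8 were tested, summed to 2230 to 2380, 2330 to 2380, and 2290 to 2390 CPM in vehicle at 4, 8, and 24 h, and to 2340 to 2390, 2060 to 2120, and 1610 to 1680 CPM with FGF6. The 5 pericyte and smooth muscle markers, all tested, summed to 1170 to 1230, 1200 to 1250, and 727 to 734 CPM in vehicle, and to 855 to 900, 555 to 604, and 129 to 134 CPM with FGF6. Both sums were lowest with FGF6 at 24 h. *Acta2*, at 77.4 to 980 CPM as a group mean, made most of the second sum. *Cspg4* was higher with FGF6 at 4 h (log2 1.11, adjusted p = 7.08e-15) and 8 h (0.83, adjusted p = 1.55e-11). *Rgs5* had a mean of 0.810 CPM in vehicle and 1.45 CPM with FGF6 at 24 h. Of these 5 markers 1 was higher at each time, and 2, 4, and 3 were lower at 4, 8, and 24 h. Beside these, 28.6%, 32.4%, and 35.9% of all genes were higher and 34.2%, 38.4%, and 37.9% lower. The largest part of the stromal sum was *Itgb1*, at 988 to 1400 CPM as a group mean. It was higher with FGF6 at 4 h (log2 0.35, adjusted p = 5.71e-10). At 24 h the *Itgb1* mean was 988 CPM in vehicle and 1230 CPM with FGF6, while that of *Pdgfrb* was 693 and 134 CPM. Of the 8 tested stromal markers, 1, 2, and 2 were higher and 5, 6, and 6 lower at the 3 times, beside the same shares. Among those lower at 4 h were *Pdgfra* (log2 -0.21, adjusted p = 7.75e-06), *Pdgfrb* (-0.34, adjusted p = 2.11e-10), and *Cd24a* (-2.63, adjusted p = 1.61e-13).

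The remaining lists moved as well. The 7 mature adipocyte markers (4 tested) summed to 102 to 107, 96.5 to 99.7, and 156 to 178 CPM in vehicle at 4, 8, and 24 h, and to 89.2 to 97.7, 68.5 to 72.6, and 63.5 to 70.1 CPM with FGF6. *Fabp4*, at 66.9 to 160 CPM as a group mean, made most of these sums. No other marker of that list exceeded 4.66 CPM in a library. The 8 immune markers (3 tested) summed to 21.5 to 23.3, 16.1 to 19.3, and 13.8 to 15.3 CPM in vehicle, and to 29.0 to 29.7, 22.1 to 23.6, and 44.3 to 47.0 CPM with FGF6. Of the last, *Cd14*, singled out after the values were seen, made 40.4 to 43.6 CPM. The 5 skeletal muscle markers (4 tested) summed to 14.6 to 16.3, 9.94 to 13.1, and 7.46 to 9.84 CPM in vehicle, and to 7.76 to 8.43, 5.98 to 7.03, and 1.86 to 2.35 CPM with FGF6. The 6 endothelial markers (3 tested) were low, at 2.21 to 3.24, 1.61 to 2.26, and 1.66 to 2.14 CPM in vehicle and 2.92 to 3.95, 3.16 to 4.85, and 4.55 to 6.16 CPM with FGF6. The 5 nerve and Schwann markers (3 tested) summed to 5.35 to 6.28, 4.21 to 5.93, and 4.98 to 5.18 CPM in vehicle and 4.53 to 5.28, 2.77 to 3.50, and 5.11 to 5.33 CPM with FGF6.

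To see which of the FGF6 effects differed between times, the difference of the effects was tested as an interaction. Between 4 and 8 h 4 of the 9 effects differed (30.6% of all genes), between 8 and 24 h 5 differed (45.1%), and between 4 and 24 h 6 differed (53.5%). These 3 comparisons share groups and are not independent. The effect on *Ptch1* was higher at 24 h than at 8 h by 1.15 (log2, SE 0.064, adjusted p = 1.34e-13) and than at 4 h by 1.05 (adjusted p = 3.31e-13). That on *Gli1* was higher at 24 h than at 8 h by 1.29 (SE 0.36, adjusted p = 0.00451) and than at 4 h by 2.10 (SE 0.37, adjusted p = 3.82e-05). The *Smo* effect moved upward at each step, by 0.28 from 4 to 8 h (adjusted p = 0.000539) and by 0.35 from 8 to 24 h (adjusted p = 1.3e-05), or 0.63 in all (adjusted p = 7.83e-10).

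The effect on *Boc* moved down by 1.92 from 8 to 24 h (SE 0.48, adjusted p = 0.00194) and by 2.96 from 4 to 24 h (SE 0.45, adjusted p = 4.48e-06). Its difference from 4 to 8 h was -1.04 (adjusted p = 0.0268), and this call was lost in 6 of the 12 fits that left out a library, namely FGF6 4 h replicate 2, FGF6 8 h replicate 2 or 3, vehicle 4 h replicate 1, or vehicle 8 h replicate 2 or 3, where the value was between -0.99 and -0.83. For *Cdon* the effect was lower at 8 h than at 4 h by 0.61 (log2 -0.61, adjusted p = 5.23e-07) and higher at 24 h than at 8 h by 0.68 (adjusted p = 2.43e-08). The *Gli3* effect differed by -0.27 from 4 to 8 h (adjusted p = 0.00211) and by -0.31 from 4 to 24 h (adjusted p = 0.000189). That on *Hhip* was higher at 24 h than at 4 h by 3.54 (SE 0.98, adjusted p = 0.00375), by 4.30 without vehicle 24 h replicate 2, and by 3.12 without vehicle 24 h replicate 3. The effects on *Sufu* and *Gli2* did not pass in any of the 3 interactions. Without vehicle 24 h replicate 3, all calls among these interactions that use the 24 h groups were kept.

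Within vehicle-treated cells 4 of the 9 genes were called in at least 1 comparison of times. From 4 to 8 h 3 were called (43% of all genes), from 8 to 24 h 3 (49.2%), and from 4 to 24 h 3 (60.8%). *Ptch1* fell by 0.22 (log2, adjusted p = 0.000107) and then by 0.57 (adjusted p = 7.97e-11), or by 0.79 over the whole course (adjusted p = 5.03e-14). *Cdon* rose by 0.35 from 4 to 8 h (adjusted p = 1.58e-06) and fell by 0.42 from 8 to 24 h (adjusted p = 1.07e-07). *Sufu* fell by 0.20 from 8 to 24 h (adjusted p = 0.000512) and by 0.16 from 4 to 24 h (adjusted p = 0.00217). *Gli3* rose by 0.18 from 4 to 24 h (adjusted p = 0.00113). Its 4 to 8 h value of 0.11 (adjusted p = 0.0404) was lost without vehicle 4 h replicate 1 or 3 or vehicle 8 h replicate 2 or 3, where it was between 0.08 and 0.13. The other 5 genes did not pass in any of these 3 comparisons. From 4 to 24 h the 95% interval was -0.06 to 0.10 for *Smo*, -0.56 to 0.53 for *Gli1*, -0.43 to 0.27 for *Gli2*, -0.81 to 0.20 for *Boc*, and -3.35 to 0.34 for *Hhip*. No call was lost without vehicle 24 h replicate 3.

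Within FGF6-treated cells 8 of 9 were called from 4 to 8 h (48.2% of all genes), 6 from 8 to 24 h (62.3%), and 7 from 4 to 24 h (71.2%). *Gli1* rose by 1.34 from 8 to 24 h (log2, SE 0.24, adjusted p = 2.59e-05) and by 2.09 from 4 to 24 h (SE 0.26, adjusted p = 9.98e-08). Its value from 4 to 8 h was 0.75 (adjusted p = 0.0399), and that call was lost without FGF6 4 h replicate 1 or 2 or FGF6 8 h replicate 1 or 2, where it was between 0.63 and 0.73. *Hhip* rose by 1.79 from 4 to 8 h (SE 0.40, adjusted p = 0.000623), and its value from 8 to 24 h was 0.24 (95% interval -0.42 to 0.89, adjusted p = 0.538). *Boc* fell by 1.01 from 4 to 8 h (SE 0.26, adjusted p = 0.00245) and by 2.26 from 8 to 24 h (SE 0.40, adjusted p = 2.58e-05). *Ptch1* fell by 0.32 (adjusted p = 3.01e-06) and then rose by 0.58 (adjusted p = 6.05e-11), and *Cdon* fell by 0.25 (adjusted p = 0.000323) and then rose by 0.26 (adjusted p = 0.000135). *Smo* rose by 0.31 (adjusted p = 6.72e-07) and by 0.34 (adjusted p = 4.91e-08). *Gli2* fell by 0.71 from 4 to 8 h (adjusted p = 0.00465), and *Sufu* fell by 0.15 from 8 to 24 h (adjusted p = 0.00536). *Gli3* fell by 0.15 from 4 to 8 h (adjusted p = 0.00679) and by 0.13 from 4 to 24 h (adjusted p = 0.0122). The earlier call was lost without FGF6 4 h replicate 2 (-0.12), and the later without FGF6 4 h replicate 2 (-0.10) or 3 (-0.11).

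The genes differed widely in level. To compare between genes, CPM was divided by the length of all annotated exons of a gene in kb. In vehicle at 4 h *Smo* was highest at 30.4 ± 0.813 CPM per kb (SD, n = 3). It was followed by *Cdon* at 9.62 ± 0.0818, *Sufu* at 7.43 ± 0.354, *Gli3* at 6.48 ± 0.259, and *Ptch1* at 5.01 ± 0.0895 CPM per kb. *Boc* at 0.555 ± 0.0672 and *Gli2* at 0.526 ± 0.0391 CPM per kb had overlapping ranges, and *Gli1* at 0.187 ± 0.0182 and *Hhip* at 0.0118 ± 0.00159 CPM per kb were lowest. *Boc* and *Gli2* also overlapped in the other 2 vehicle groups, and no other neighbours in the order did. In vehicle at 24 h *Gli3* (7.35 ± 0.231 CPM per kb) stood above *Sufu* (6.65 ± 0.144 CPM per kb), and without replicate 3 the order of the 9 genes in that group was the same.

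With FGF6 at 24 h the order differed among the less abundant genes. *Smo* was at 35.1 ± 1.79 CPM per kb, and *Sufu*, *Cdon*, and *Gli3* lay together at 6.06 ± 0.263, 5.87 ± 0.217, and 5.54 ± 0.103 CPM per kb with overlapping ranges between neighbours. At 4 h with FGF6 the neighbours *Gli3* (6.08 ± 0.395) and *Cdon* (5.83 CPM per kb) had also overlapped, as had *Boc* and *Gli2* at 4 and 8 h. At 24 h *Gli1* (0.465 ± 0.0488 CPM per kb) was above *Gli2* (0.303 ± 0.0258 CPM per kb), and *Boc* (0.0600 ± 0.0270 CPM per kb) was below *Hhip* (0.120 ± 0.0126 CPM per kb). At every time and in both treatments *Gli3* was the most abundant of the 3 GLI genes per kb.

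**Figure D3:**
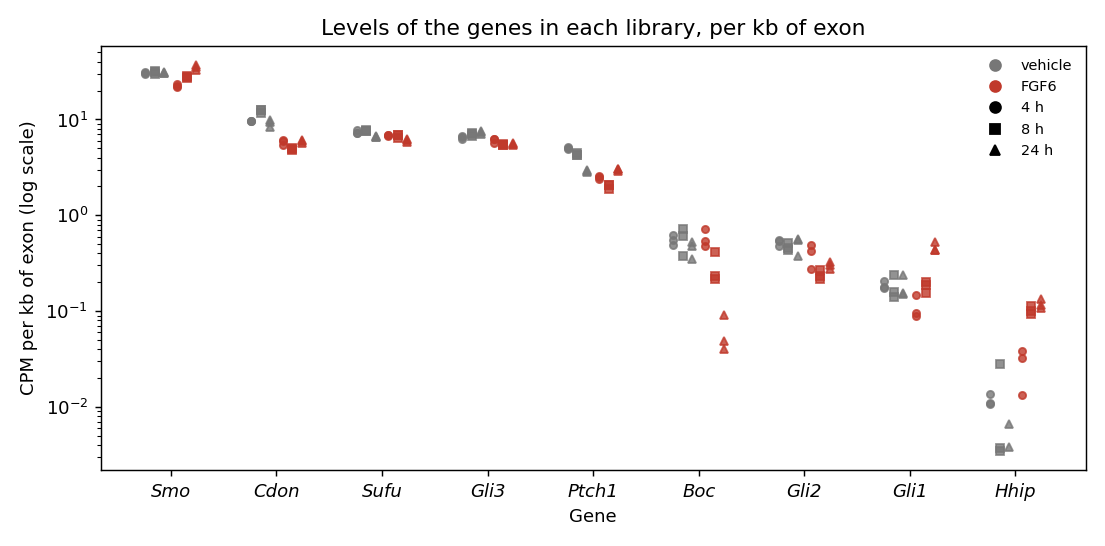
CPM per kb of exon (vertical log axis) of each gene in each library, with vehicle in grey, FGF6 in red, and a circle, square, or triangle for 4, 8, or 24 h. The order of genes is that of vehicle at 4 h, and the vehicle library with 0 counts of *Hhip* is not drawn. *Smo* is above all other genes in every library, and *Boc* lies below *Hhip* with FGF6 at 24 h and above it in the other groups.

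Of the other genes of the pathway, 59 were listed by role, of which 53 were tested. At 4 h 17 were higher and 20 lower with FGF6, where 28.6% of all genes were higher and 34.2% lower. The 8 h counts were 19 and 25, beside 32.4% and 38.4% of all genes, and those at 24 h were 25 and 19, beside 35.9% and 37.9%. Their median log2 fold changes were -0.06, -0.12, and 0.09. Without vehicle replicate 3, where the filter let 54 of the genes through, 27 were higher and 16 lower at 24 h. In that fit 36.8% of all genes tested were higher and 34.2% lower. Among the 3 ligands, *Shh* had 0 counts in every library, *Ihh* had at most 13 counts and was not tested, and *Dhh* had 3 to 21 counts. The log2 fold change of *Dhh* was 0.69 at 4 h (adjusted p = 0.143), 0.11 at 8 h (adjusted p = 0.851), and -0.70 at 24 h (adjusted p = 0.267), or -0.58 without vehicle replicate 3.

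Of the 4 tested genes for ligand lipidation, release, and carriage, *Hhat*, which palmitoylates the ligands, rose at each time, from 12.2 ± 0.563 to 23.8 ± 0.984 CPM at 4 h (log2 0.96, SE 0.081, adjusted p = 1.31e-10). *Disp1*, which releases the ligands and was picked out after its values were seen, fell by 0.32 at 4 h (log2, adjusted p = 5.86e-06). At 8 and 24 h 3 of the 4 were lower, where 38.4% and 37.9% of all genes were lower. *Scube2*, a secreted carrier, summed to 35 counts over the vehicle libraries at 8 h and 3 with FGF6, a ratio of 10.7 (exact counting interval 3.38 to 54.4), and to 45 and 7 counts at 24 h, a ratio of 6.22 (2.78 to 16.3), or 5.77 (2.49 to 15.5) without vehicle replicate 3.

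Among other receptors and co-receptors *Gas1*, a co-receptor that acts with *Boc* and *Cdon*, was by far the most abundant and fell at all times. Its vehicle means were 1080 ± 28.4, 848 ± 5.61, and 1230 ± 71.6 CPM, and its FGF6 means were 656 ± 44.7, 268 ± 25.3, and 265 ± 25.8 CPM. The log2 fold change was -0.72 (SE 0.060, adjusted p = 8.45e-11), -1.66 (SE 0.061, adjusted p = 5.22e-18), and -2.21 (SE 0.062, adjusted p = 1.19e-20). The 24 h value was also -2.21 without vehicle replicate 3. *Lrp2* had at most 15 counts and was not tested.

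Of 16 genes for the cilium and for trafficking through it, 11 were lower and 1 was higher at 4 h, 12 and 1 at 8 h, and 8 and 3 at 24 h, where 34.2%, 38.4%, and 37.9% of all genes were lower and 28.6%, 32.4%, and 35.9% higher. The median log2 fold changes were -0.32, -0.35, and -0.14. Without vehicle replicate 3 there were 7 lower and 4 higher at 24 h, beside 34.2% and 36.8% of all genes. *Kif7*, the ciliary kinesin that handles GLI proteins, was at 4.99 ± 0.186 CPM with FGF6 at 4 h against 14.1 ± 0.556 CPM in vehicle (log2 -1.50, SE 0.085, adjusted p = 5.66e-14). Of 12 kinases 6 were higher and 4 lower at 4 h, 5 and 5 at 8 h, and 7 and 4 at 24 h. *Stk36* fell by 0.81 at 4 h (log2, SE 0.16, adjusted p = 9.09e-05). Of 9 ubiquitin ligases and adaptors 4 were higher and 2 lower at 4 h, 5 and 2 at 8 h, and 8 and 1 at 24 h, beside the same shares of all genes, and the median at 24 h was 0.28. Without vehicle replicate 3 these were 8 and 0 at 24 h, and those of the kinases 7 and 3, beside 36.8% higher and 34.2% lower.

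Of 11 reported target genes 9 were tested, and 5 were higher and 1 lower at 4 h, 7 and 2 at 8 h, and 6 and 2 at 24 h, where 62.8%, 70.8%, and 73.8% of all genes were called. The medians were 0.17, 0.70, and 1.04, and the 24 h counts were the same without vehicle replicate 3. *Ccnd1*, which encodes cyclin D1 and responds to many growth signals, rose from 69.6 ± 4.04 to 308 ± 8.43 CPM at 4 h (log2 2.15, SE 0.067, adjusted p = 2.69e-19) and from 50.6 ± 6.43 to 529 ± 27.7 CPM at 24 h (log2 3.39, SE 0.070, adjusted p = 2.04e-23, or 3.43 without vehicle replicate 3). *Foxc2*, a forkhead transcription factor, rose from 30.6 ± 1.22 to 178 ± 10.3 CPM at 4 h (log2 2.54, SE 0.075, adjusted p = 1.02e-19). *Foxl1*, another forkhead factor, rose by 2.08 at 8 h (log2, SE 0.092, adjusted p = 2.1e-16) and by 1.17 at 24 h (SE 0.094, adjusted p = 2.84e-11), or 1.13 without vehicle replicate 3. *Foxf1* went the other way, with 36 counts over the vehicle libraries and 1 with FGF6 at 24 h, a ratio of 34.8 (exact counting interval 5.86 to 1410), or 32.6 (5.33 to 1340) without vehicle replicate 3. The targets thus moved in both directions at each time.

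**Figure D4:**
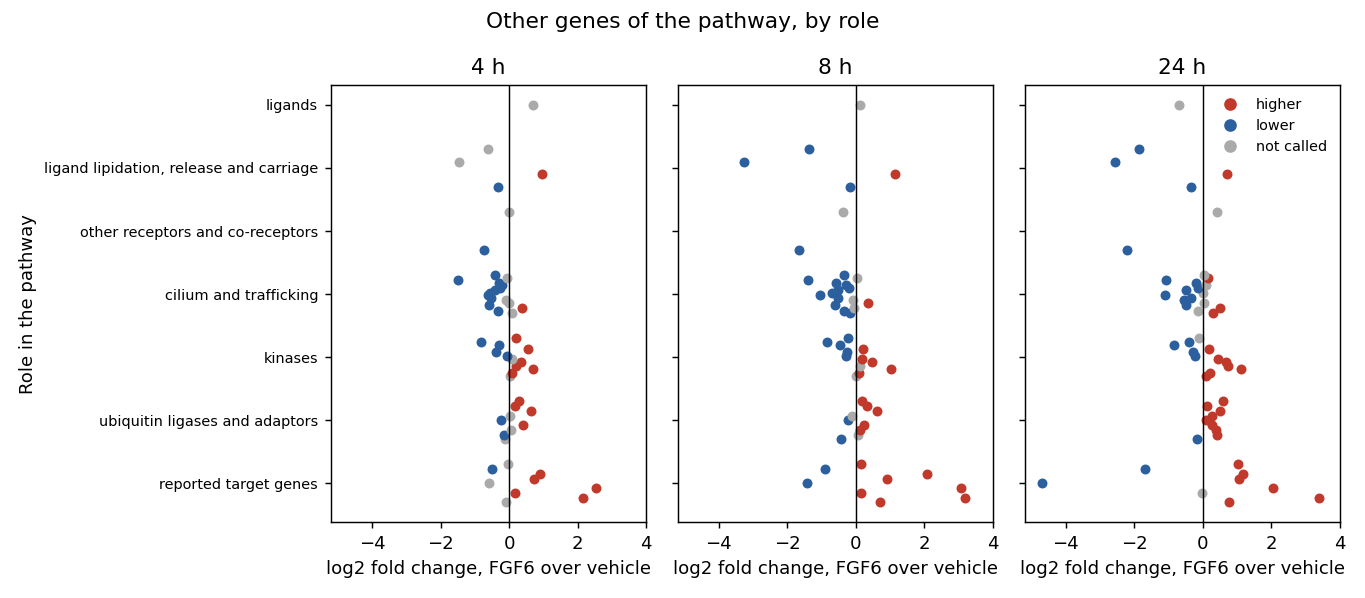
Log2 fold change of FGF6 over vehicle (horizontal axis) for the 53 tested genes of the pathway other than the 9, arranged by role, at 4, 8, and 24 h, with red for higher, blue for lower, and grey for not called. Points of the cilium and trafficking row lie mostly below 0 at 4 and 8 h, and those of the ubiquitin ligases lie above 0 in 8 of 9 cases at 24 h. The leftmost point at 24 h is *Foxf1*, which rests on 1 count with FGF6.

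To place *Gli1* and *Ptch1* among all genes, the 12298 tested genes with a mean of at least 1 CPM were ranked by the Pearson correlation of log2 CPM with each of them over the 18 libraries. The libraries share the 6 treatments and times, so these correlations are descriptions of the pattern over groups. The highest for *Gli1* were *Nbea* (r = 0.922), *Tmx4* (0.917), and *Rnf128* (0.912), and the lowest were *BC051226* (-0.937), *Irf2* (-0.937), and *Gm17435* (-0.934). *Nbea* was at 34.1 ± 0.999, 40.8 ± 0.541, and 69.4 ± 1.10 CPM in FGF6 at 4, 8, and 24 h, while *Irf2*, an interferon regulatory factor, was at 69.9 ± 1.91, 42.0 ± 0.386, and 20.2 ± 1.06 CPM.

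For *Ptch1* the highest were *Nacc2* (r = 0.943), *Fzd7* (0.929), and *Id2* (0.923), and the lowest were *Piezo2* (-0.968), *Rcan2* (-0.960), and *Mcu* (-0.953). *Id2*, an inhibitor of basic helix-loop-helix factors, declined in vehicle from 63.3 ± 2.40 to 28.7 ± 0.575 CPM between 4 and 24 h, as *Ptch1* did, and was at 23.8 ± 1.24 and 24.8 ± 1.69 CPM with FGF6 at 8 and 24 h. *Piezo2*, a mechanosensitive channel, was at 2.85 ± 0.0986, 4.67 ± 0.852, and 2.13 ± 0.305 CPM with FGF6 and 0.581 ± 0.109, 0.870 ± 0.245, and 1.56 ± 0.108 CPM in vehicle. Among the 9 genes themselves, the correlations over the 18 libraries ranged from -0.898 for *Hhip* with *Gli3* to 0.853 for *Cdon* with *Gli3*, and that of *Gli1* with *Ptch1* was 0.0775.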

How the data were processed

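The authors aligned reads to GRCm38.p4 with STAR, used featureCounts from Subread with GENCODE genes, and deposited the raw counts. Tool versions, annotation release, strand setting, and handling of multiply mapped reads are not given in the sources used here, so counts of exons shared between strands are uncertain. Symbols and positions came from GENCODE M21, which held 47310 of the 48023 identifiers.

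In the deposited counts, filterByExpr of edgeR 4.0.16 (R 4.3.3) left 15071 genes, libraries were scaled by TMM, and the quasi-likelihood test was run with 1 mean for each of the 6 groups and no covariates. Groups came from the labels. Contrasts were FGF6 against vehicle at 4, 8, and 24 h, each treatment between times, and the FGF6 effects between times. Benjamini-Hochberg adjustment ran over all genes tested, and a gene was called at an adjusted p under 0.05. SEs are those implied by the F statistic. The alternatives were limma 3.58.1 with voom, DESeq2 1.42.0, library sizes alone, upper-quartile factors, 2 other filters, only the libraries of a time, a replicate block, an FDR of 0.25, a 2-fold minimum, and leaving out each library. The 9 genes, lists, and naming rules were chosen with earlier results of these data known. Named besides the 9 were ligands, receptors (1 gene is not reported here), the 3 largest separated changes each way per time, and the 3 genes most and least correlated with *Gli1* and *Ptch1*. Methods were also run on simulated counts in which far fewer genes changed than were called here, so this does not cover scaling under so many changes.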

Additional observations from a re-analysis of the deposited data

Results flagged for a closer look

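The FGF6 effect differed between times by the interaction test of edgeR's quasi-likelihood model in 15 cases among the 9 genes, given here as the later effect minus the earlier on the log2 scale. From 4 to 8 h it differed for *Boc* (-1.04), *Cdon* (-0.61), *Smo* (0.28), and *Gli3* (-0.27), beside 30.6% of all genes. From 8 to 24 h it differed for *Ptch1* (1.15), *Boc* (-1.92), *Cdon* (0.68), *Smo* (0.35), and *Gli1* (1.29), beside 45.1% of all genes. From 4 to 24 h it differed for *Ptch1* (1.05), *Hhip* (3.54), *Boc* (-2.96), *Smo* (0.63), *Gli1* (2.10), and *Gli3* (-0.31), beside 53.5%. For *Gli1* and *Smo* the effect itself was called lower at 4 h and higher at 24 h. The 4 h call of *Gli1* was lost without FGF6 replicate 1 or 2 or vehicle replicate 1, and the *Boc* difference from 4 to 8 h was lost in 6 of 12 fits that left out a library.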

How the results depend on the processing

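Over the processing alternatives, 234 of 263 log2 fold changes of the 9 genes between FGF6 and vehicle kept their direction and side of the threshold, 22 fell below it, 4 passed it, and 3 turned in sign. These include the FDR of 0.25 and the 2-fold minimum, which only move the threshold on the same fit. Most of the 22 came from the 2-fold minimum. The signs that turned belonged to values near 0, *Boc* at 4 h (-0.03 with library sizes alone) and *Gli1* at 8 h (-0.03 with library sizes alone and -0.01 with upper-quartile factors). With 1 library left out, 138 of 162 were kept, *Boc* at 4 h ranged from -0.09 to 0.21, and *Gli1* at 8 h from -0.12 to 0.30. With 1 library left out, the genes counted as lower at 4 h ranged from 3 to 6 and those higher from 0 to 1. Requiring at least 10 counts in every library removed *Hhip* and *Boc* from the test at every time and left 0 higher at 8 h. An FDR of 0.25 gave 1 higher at 4 h. A 2-fold minimum left 0, 2, and 1 of the 9 genes lower at 4, 8, and 24 h. *Ptch1* at 4 h, at 0.501 times vehicle, fell just short of this minimum. *Hhip* kept its call as higher at 8 and 24 h (log2 3.04 and 4.80), as did *Gli1* at 24 h (1.32). Of the other pathway genes 2, 5, and 6 were higher and 1, 6, and 7 lower. At this minimum 1710, 2759, and 3431 of the 15071 genes tested were called in either direction. Library sizes alone moved the median of all genes by -0.10 at 4 h and lowered the share of calls that were higher from 45.5% to 33.3%. The *Sufu* call at 4 h was also lost with DESeq2 (-0.09, adjusted p = 0.0965), without a filter, with at least 10 counts in every library, and with the 4 h libraries alone (-0.08, adjusted p = 0.154), and the *Gli2* call at 4 h with DESeq2 (adjusted p = 0.0621) and with the 4 h libraries alone (adjusted p = 0.0707). The labels do not say whether same-numbered libraries belong together. The correlations of their deviations ranged from -0.0275 to 0.0486, and 5 of 9 pairs did not correlate best with their own number. A replicate block gave 9465, 10686, and 11116 genes called at 4, 8, and 24 h in place of 9460, 10664, and 11115. Under the block the call of *Gli1* in FGF6 from 4 to 8 h was lost (0.75, adjusted p = 0.0517), as it was with DESeq2 (adjusted p = 0.056) and without a filter (adjusted p = 0.0799). The *Gli3* call in vehicle from 4 to 8 h was lost with DESeq2 (0.10, adjusted p = 0.0735) and without a filter (0.11, adjusted p = 0.0772), and its calls in FGF6 from 4 to 8 h and from 4 to 24 h with library sizes alone (-0.09 each, adjusted p = 0.0972 and 0.0751). Depth limits *Hhip*, *Gli1*, *Boc*, and *Gli2*, which have few counts.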
